A study of Equus caballus with 8 samples.

Results

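The genes described here encode factors of the haematopoietic niche of bone marrow stroma and the regulators of these factors. The 10 genes of the list were CXCL12, KITLG, ANGPT1, CSF1, VCAM1, LEPR, SNED1, FOXC1, EBF1 and EBF3. They were chosen by gene symbol as genes of the marrow stromal niche, with earlier results of these data known. Of these, 9 had values among the 15266 named genes and were followed, and LEPR was not analysed here. Their mRNA was compared in horse mesenchymal stem cells from bone marrow (BM-MSCs), stromal cells that adhere to plastic and are expanded from sternal marrow, with and without TGF-β2.

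Cells came from 4 adult horses, labelled D, J, L and W, and each horse gave 1 untreated and 1 TGF-β2-treated library. The untreated cells were kept in standard low glucose medium with fetal bovine serum, to which the methods of the study add basic fibroblast growth factor in both arms. The treated cells had 1 ng/ml human recombinant TGF-β2 in the same medium, from isolation to passage 3 or 4 by the sample labels and for 3 passages by the methods. These were primary cultures, so the marrow cells that the niche acts on were not part of the model, and the comparison concerns stroma grown on plastic.

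In marrow, blood stem cells and young B cells are held next to stromal cells rich in the chemokine CXCL12, which also display or secrete stem cell factor (KITLG) and carry the leptin receptor. CXCL12 retains cells that bear CXCR4, stem cell factor maintains cells that bear KIT, and the adhesion molecule VCAM1 anchors cells through integrin α4β1. The transcription factors FOXC1, EBF1 and EBF3 are known to keep these stromal cells in their niche-supporting state.

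TGF-β2-treated cells had far less mRNA of VCAM1, SNED1 and CXCL12, less of ANGPT1 and CSF1, and no niche factor gene was called higher. VCAM1 was 187-fold, SNED1 143-fold, CXCL12 47.4-fold, ANGPT1 11.6-fold and CSF1 4.51-fold lower by the ratio of geometric means (n = 4 horses). KITLG, FOXC1, EBF1 and EBF3 changed by 2.13-fold or less and were not called. A gene was called when the Benjamini-Hochberg adjusted p of limma, fitted to all 14907 tested genes, was under 0.05 and the absolute log2 fold change was over 1. Of the 9 genes, 5 were called lower and 0 higher, where 5.87% of all tested genes were called lower and 5.59% higher. With the horse as a block, 6 were called lower, EBF3 being added, against 7.31% of all tested genes called lower and 6.83% called higher in that fit. Scaled to equal library totals, 8 were called lower, FOXC1 being the exception, while all calls shifted from 834 higher and 875 lower to 588 higher and 1548 lower. The median log2 fold change of the 9 genes was -2.17, and that of all tested genes was 0.0055. Because the genes were chosen with earlier results of these data known, these counts and shares describe the list and do not test it.

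**Figure D1:**
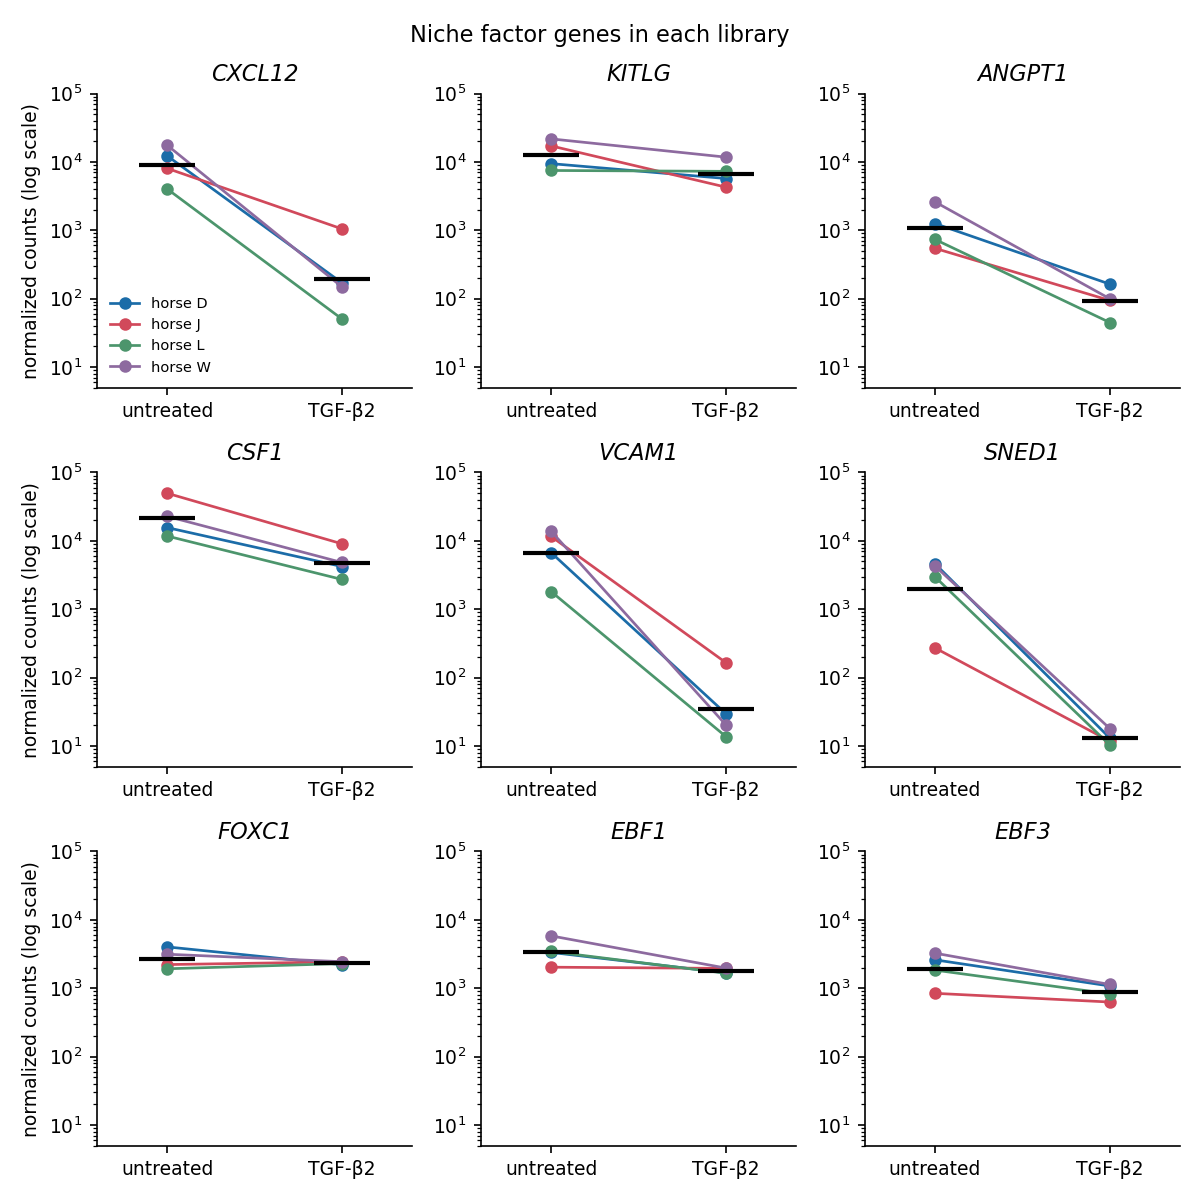
Normalized counts (log axis) of the 9 niche factor genes in the untreated and the TGF-β2-treated library of each horse, joined by a line, with a black bar at the geometric mean of each group. CXCL12, ANGPT1, CSF1, VCAM1 and SNED1 drop in all 4 horses without overlap of the groups, whereas the lines of FOXC1 cross and its treated libraries lie between 2211 and 2448 normalized counts.

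Between 39184554 and 57228675 reads were counted per library, and values are normalized counts, in which the reads of a library are divided by its size factor. All 9 genes had at least 10 normalized counts in all 8 libraries, so none depended on 1 group to be tested. The lowest count behind any value was 9 reads, for SNED1 in a treated library. As a check of the treatment, 5 TGF-β response genes were read, of which 3 were called higher and 2 were not called. SKIL, a feedback inhibitor of TGF-β signalling, CTGF, a matricellular protein, and TGFBI, a matrix protein, had log2 fold changes of 1.61, 1.67 and 1.57 (limma adjusted p of 2.28e-04, 0.00319 and 0.0121), and TGFBI lost its call without horse D or L when there was no block. SMAD7, another feedback inhibitor, and LTBP2, a latent TGF-β binding protein, had log2 fold changes of 0.024 and -0.13 (limma adjusted p of 0.930 and 0.715). The cell identity was also examined. THY1, NT5E, ENG, CD44 and ITGB1, the surface markers of these cells, were present in all 8 libraries, the lowest value being 1609 normalized counts for NT5E. In bulk RNA a smaller share of cells of one type and less RNA per cell cannot be told apart.

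The libraries of horse J stood apart in markers of other cells. Of 4 osteoblast genes with values, SP7, IBSP and ALPL were highest in treated J, with 3705, 9128 and 39045 normalized counts, against at most 434, 31.0 and 2900.2 in the other treated libraries. Untreated libraries of other horses also held these genes, with 3310, 1662 and 21928 in untreated L. SP7 and ALPL were lowest among untreated libraries in J, at 1029 and 3405. Both rose with treatment in J and fell in D, L and W. Untreated J held 25616 normalized counts of ICAM1, an adhesion molecule induced in inflammation, against at most 3647 in the other untreated libraries. Of 11 haematopoietic markers 7 had values, 4 were tested and none was called by limma. Their summed level ran from 646 to 2839.8 normalized counts in untreated and from 513 to 869 in treated libraries, the highest being untreated J. The pan-leukocyte gene PTPRC had 1.19 to 109.7 normalized counts, and the T cell gene CD3E was at 0 in 6 of 8 libraries, CD163 in 2 and SPI1 in 1. PTPRC and CD3E had their highest value in untreated J. The part of these cells in the changes of the niche factors was not tested. Without horse J the log2 fold changes of CXCL12 and VCAM1 were -6.44 and -8.02.

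CXCL12, the chemokine that retains blood stem cells in marrow, had 12274, 8048, 4030.1 and 17573 normalized counts in the untreated libraries of horses D, J, L and W. The treated libraries of the same horses held 170.3, 1049, 50.6 and 149. Every treated library was below every untreated one, and the treated library of horse J stood well above the other treated libraries. The level left after treatment was 1.39%, 1.26% and 0.848% of the untreated level in horses D, L and W and 13.0% in horse J. Its log2 fold change was -5.57 ± 0.86 (standard error; limma adjusted p = 0.00399). CXCL12 had the 21st lowest log2 fold change of the 14907 tested genes.

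ANGPT1, the ligand of the receptor tyrosine kinase TEK and a product of marrow stroma, was less abundant. Untreated libraries held 1254, 545, 735 and 2601 normalized counts in horses D, J, L and W, and treated libraries 163, 94.2, 44.8 and 99.7. The groups did not overlap. The decrease was largest in horse W, at 26.1-fold, and smallest in horse J, at 5.78-fold. Its log2 fold change was -3.54 ± 0.54 (standard error; limma adjusted p = 0.00380).

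CSF1, the growth factor of macrophages and their precursors, was 3.71-fold to 5.49-fold lower in single horses. It had 15657, 49781, 11784 and 22879 normalized counts in the untreated libraries of horses D, J, L and W. In the treated libraries it had 4221, 9069.9, 2731 and 4836. The untreated library of horse J was the highest and so was the treated one, and the groups did not overlap. The log2 change within a horse ran from -2.46 in J to -1.89 in D, with a standard deviation of 0.24, the smallest of the 9 genes. The mean log2 fold change of -2.17 had a standard error of 0.49 without a term for the horse and 0.11 when the horse was a block, and limma gave adjusted p of 0.0165 and 0.00101. Without the block the call was lost when horse D or horse W was left out, with adjusted p of 0.0850 and 0.101 from limma. With the block it was kept in all 4 fits that left out a horse.

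KITLG, or stem cell factor, was the secreted factor with no call. Untreated libraries held 9432, 17149, 7489 and 21709 normalized counts in horses D, J, L and W, and treated libraries 5717, 4277, 7277 and 11739. The groups overlapped, because treated W lay above untreated D and L. KITLG was lower after treatment in all 4 horses, but by 1.03-fold in L against 4.01-fold in J. The log2 fold change was -0.91 with a 95% confidence interval from -1.84 to 0.015. The adjusted p from limma were 0.142 and, in the blocked fit, 0.0726, the blocked 95% confidence interval running from -1.68 to -0.15. KITLG was called lower after scaling to equal library totals, with a log2 fold change of -1.23 (limma adjusted p = 0.0402), and in the blocked fit without horse L, where it was -1.20 (limma adjusted p = 0.0460). The interval includes a decrease of more than 2-fold, so the data do not show that KITLG was unchanged.

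**Figure D2:**
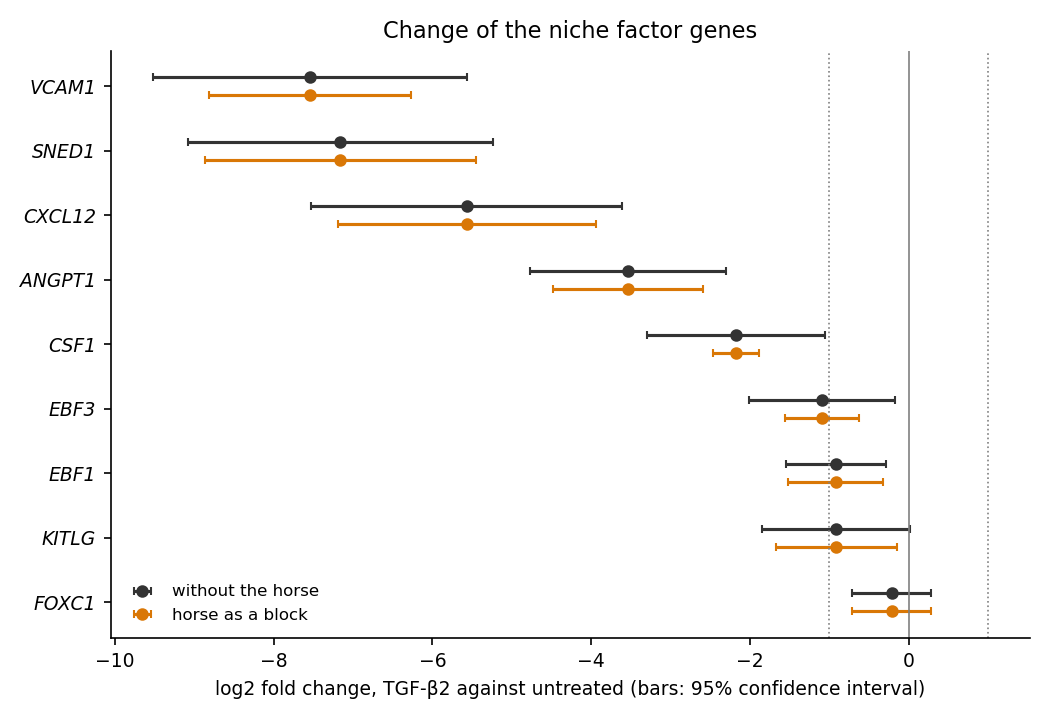
Log2 fold change of each niche factor gene, TGF-β2-treated against untreated cells, with 95% confidence intervals from limma without the horse (dark) and with the horse as a block (orange). Dotted lines mark the fold change threshold of 1 on the log2 scale. The intervals of VCAM1, SNED1, CXCL12, ANGPT1 and CSF1 lie wholly below -1. Those of FOXC1 in both fits and of KITLG without the horse span 0.

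VCAM1, the adhesion molecule bound by integrin α4β1 on blood cells, had the largest decrease of the 9 genes. In untreated libraries it had 6743, 11647, 1819.5 and 13878 normalized counts in horses D, J, L and W. In treated libraries 29.8, 166, 13.8 and 20.4 were left. The groups were more than 10-fold apart at their nearest values, and treated J was again above the other treated libraries. The decrease ran from 70.2-fold in J to 679-fold in W. Its log2 fold change was -7.55 ± 0.87 (standard error; limma adjusted p = 0.00142). Of the 14907 tested genes, 2 had a lower log2 fold change.

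SNED1, a secreted matrix protein with sushi, nidogen and EGF-like domains, had 4629.7, 272, 2978 and 4297 normalized counts in the untreated libraries of horses D, J, L and W. In treated libraries it had 13.1, 11.8, 10.3 and 18.0, from 9 to 15 reads each. The treated libraries were therefore alike, and the spread in the size of the change came from the untreated ones, of which J was 17.0-fold below the highest. The decrease was 23.1-fold in J and between 238-fold and 353-fold in the other horses. Its log2 fold change was -7.16 ± 0.84 (standard error; limma adjusted p = 0.00152), and 4 tested genes had a lower one. Without horse J it was -8.07.

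**Figure D3:**
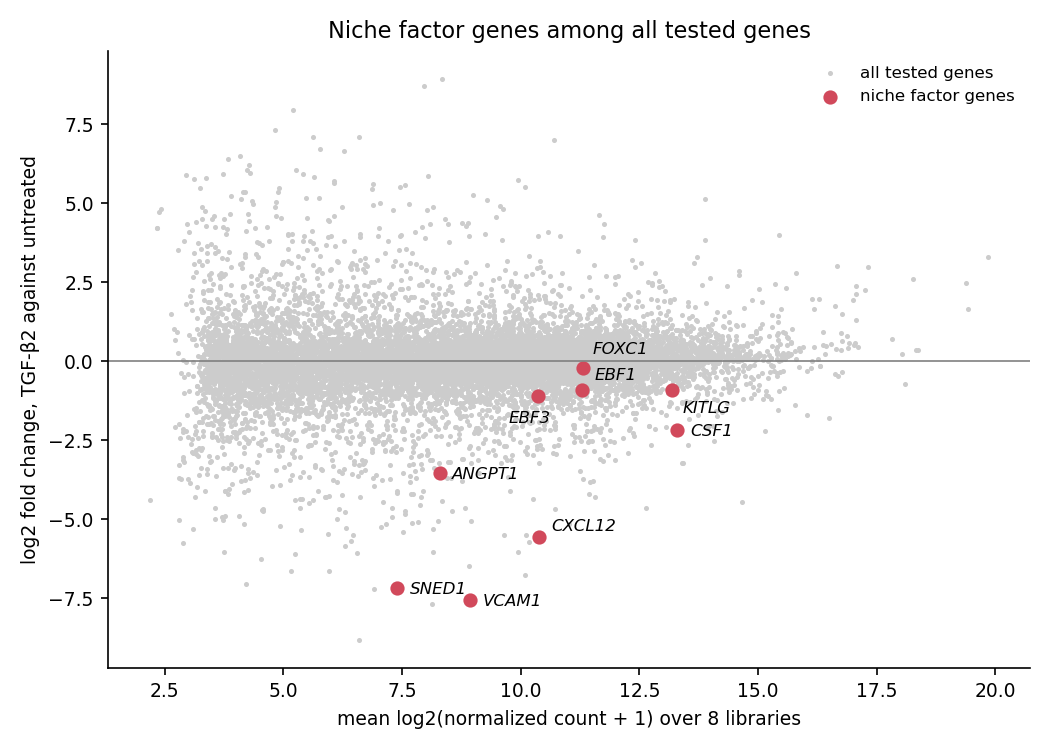
Log2 fold change against the mean log2(normalized count + 1) over 8 libraries for all 14907 tested genes (grey) and the 9 niche factor genes (red). VCAM1 and SNED1 lie near the lower edge of the plot and CXCL12 among the lowest genes at its level, while FOXC1 lies within the main band of genes.

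The 3 transcription factors had log2 fold changes from -1.09 to -0.21, and none was called without the block. FOXC1, required for the CXCL12-abundant stromal cells of marrow, had 4030.2, 2222, 1929 and 3149 normalized counts in the untreated libraries of horses D, J, L and W and 2211, 2436, 2297 and 2448 in the treated ones. It was lower after treatment in D and W and higher in J and L, and the groups overlapped. The log2 fold change was -0.21, with a 95% confidence interval from -0.71 to 0.29. The adjusted p from limma were 0.528 and, in the blocked fit, 0.457. Without horse D the log2 fold change was 0.0071, so its sign rested on that horse. Under the deposited scaling the interval excludes a decrease of 2-fold. The treated libraries were close together, with a coefficient of variation of 4.87% against 33.6% in untreated libraries, a difference that was not tested.

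EBF1, early B cell factor 1, is named for lymphocytes and is also made by marrow stroma. It had 3345, 2035, 3452 and 5844 normalized counts in untreated and 1684, 1954, 1662 and 1975 in treated libraries of horses D, J, L and W. All treated libraries were below all untreated ones, but in horse J by 1.04-fold, against 2.96-fold in W. The log2 fold change was -0.92 ± 0.28 (standard error), and limma gave adjusted p of 0.0462 and, with the block, 0.0377, so that EBF1 passed the p threshold and missed the fold change threshold. It was called by DESeq2 without a term for the horse and by edgeR, with log2 fold changes of -1.01 in both. Limma called it without horse J, at -1.20, or after total scaling, at -1.23. EBF1 missed the p threshold in limma without the trend (adjusted p = 0.0615) and after upper-quartile scaling (0.0552). Without horse D, L or W the adjusted p from limma were 0.1923, 0.1645 and 0.1151. They were 0.1335, 0.1085 and 0.1326 in the blocked fits.

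EBF3, a paralog of EBF1 that keeps the marrow cavity stroma from turning to bone, had 2607, 844, 1842 and 3261 normalized counts in untreated and 1080.3, 629.5, 829 and 1137 in treated libraries of the same horses. It was lower in all 4 horses, and the groups overlapped only through horse J, whose untreated library was below treated D and W. The log2 fold change was -1.09 in limma with and without the block. The adjusted p was 0.0866 (standard error 0.40) without the horse as a block and 0.0121 (standard error 0.19) with it, so EBF3 was called lower in the blocked fit but not in the other. It was called by DESeq2 in both designs and missed by edgeR. With the block it was not called when horse D or W was left out.

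Horse by horse, 8 of the 9 genes were lower after treatment in all 4 horses, FOXC1 being the exception, where 25.6% of all tested genes were lower in all 4. The number was 9 after total scaling and 7 after upper-quartile scaling, in which EBF1 in horse J had a log2 change of 0.0053. The treated libraries were below the untreated ones without overlap for 6 genes, the 5 called ones and EBF1, against 13.9% of all tested genes. Horse J showed the smallest decrease for 6 of the 9 genes and the largest for CSF1 and KITLG. Horse W showed the largest decrease for 5 genes and had the highest untreated value of 6. Untreated J held the lowest values of SNED1, ANGPT1, EBF1 and EBF3 and the highest of CSF1, so that it was not low across the list. With horse J left out, 7 genes were called lower in limma without the block, EBF1 and EBF3 in addition to the 5. In that fit 1015 of all 14918 tested genes were called lower, against 875 of 14907 with all horses.

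**Figure D4:**
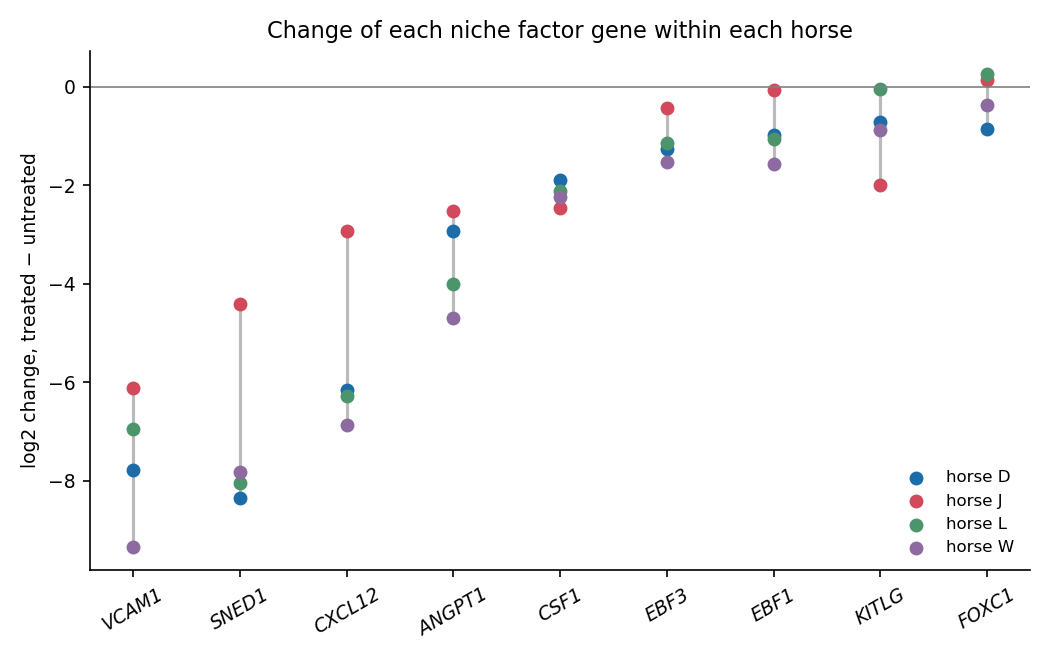
Log2 change, treated minus untreated library, of each niche factor gene in each horse, on log2(normalized count + 1), with a grey line from the lowest to the highest horse. Horse J lies apart from the other horses for SNED1 and CXCL12, at -4.42 and -2.94, and CSF1 has the narrowest range, from -2.46 to -1.89.

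Some smooth muscle genes were higher after treatment. ACTA2, TAGLN, CNN1 and DES were called higher among 7 tested, where 5.59% of all tested genes were called higher. Their log2 fold changes were 2.27, 1.33, 3.10 and 4.46. In the fit without the block each lost its call when horse D was left out. LMOD1, MYOCD and MYH11 were not called, with log2 fold changes of 0.96, 1.16 and -0.12 (limma adjusted p of 0.107, 0.237 and 0.956). The summed level of the 7 markers ran from 91519 to 319221 normalized counts in untreated and from 353886 to 902112 in treated libraries, and none of these genes was at 0 in any library. Of 8 endothelial markers 2 had values, KDR and CDH5, and their sum did not exceed 55.7 normalized counts in any library. KDR was called higher, with a log2 fold change of 2.27, and edgeR did not call it (adjusted p = 0.0671). DES and KDR held as little as 0.870 and 1.01 normalized counts in untreated libraries, within the limit of 3 reads. Their fold changes therefore depend on the pseudocount. DES reached the filter of 10 normalized counts in its treated libraries only, and KDR in these and in untreated J. Both were thus tested through the group where they were high, and their calls give no support of their own. THY1 was called lower at -2.21, with adjusted p from limma of 0.0494 and, in the blocked fit, 0.00203, but not without the trend or after upper-quartile scaling (0.0629 and 0.0530). The other surface markers were not called. Whether these changes and the decrease of the niche factors took place in the same cells was not tested.

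The receptors and partners of the niche factors were examined as a list of 11 genes, of which 6 were tested, 1 called higher and 2 lower. For this list and those below, the share over all tested genes was 5.59% called higher and 5.87% called lower. ACKR3, the receptor that scavenges CXCL12, fell in all 4 horses, from 14897 ± 7484 to 4645 ± 1095 normalized counts (SD, n = 4), and its log2 fold change was -1.59 (limma adjusted p = 0.00971). ITGA4, the α4 chain of the integrin that binds VCAM1, rose from 3867 ± 1668 to 23233 ± 16251. Without the block it was called in only 1 of the 4 fits that left out a horse. Its log2 fold change was 2.39 (limma adjusted p = 0.0233). ITGB1, its β1 partner, had one of 0.91 (limma adjusted p = 0.0123) and missed the fold threshold. ITGB7, the other partner of the α4 chain, was called lower at -1.46. Like ITGA4, it was called in only 1 of the 4 fits that left out a horse without the block. ANGPT2, the antagonist of ANGPT1, held 494.9 ± 655.9 normalized counts without and 48.7 ± 88.2 with treatment, the lowest treated library holding 2 reads. It was called lower with the horse as a block and not without it, with adjusted p of 0.0174 and 0.0834 from limma. Thus, VCAM1 was lower and the mRNA of its integrin receptor chain ITGA4 was higher in the same treated libraries.

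Other cytokines of the niche were mixed. Of 21 tested, 3 were called higher and 3 lower, with a median log2 fold change of -0.35. CXCL14, a chemokine of stromal cells, IL34, the second ligand of the CSF1 receptor, and FLT3LG, a growth factor of early blood and dendritic cells, were called lower. CXCL14 had 132, 140.0, 123 and 503 normalized counts in the untreated libraries of horses D, J, L and W and 11.8 to 20.2 in treated ones, and its log2 fold change was -3.43 (adjusted p = 0.00244 from limma). IL34 and FLT3LG had log2 fold changes of -2.82 and -1.78 (adjusted p of 0.00848 and 0.0245 from limma). Both ligands of the CSF1 receptor, CSF1 and IL34, were thus lower. IL11, LIF and WNT5A were called higher, with log2 fold changes of 3.98, 1.38 and 1.15. LIF and WNT5A were not called after total scaling, with adjusted p of 0.0725 and 0.121 from limma, and WNT5A was not called with the block, where the adjusted p was 0.0661. IL7 was called lower and JAG1 higher with the block and not without it (adjusted p of 0.0290 and 0.0292 with the block and 0.131 and 0.0518 without it, from limma).

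Of 20 other transcription factors tested, 5 were called lower and 0 higher, against 5.87% and 5.59% of all tested genes. Their median log2 fold change was -0.52. TWIST1, a mesenchymal factor, fell from 3088 ± 653.6 to 550.0 ± 88.5 normalized counts (SD, n = 4), and its log2 change in single horses ran from -2.95 to -2.06 (limma adjusted p = 2.9e-04). CEBPA, an adipogenic and myeloid factor, had a log2 fold change of -2.94 (adjusted p = 0.00470), EPAS1, the hypoxia factor HIF-2α, one of -1.68 (adjusted p = 0.00142), and KLF4 one of -1.38 (adjusted p = 0.0222). PRRX1, a factor of limb and skeletal mesenchyme, fell from 60109 ± 8079.8 to 26951 ± 7673 normalized counts, and its log2 fold change was -1.19 (limma adjusted p = 0.00698). With the block ZNF423, a zinc finger partner of EBF proteins, was called lower too, with an adjusted p of 0.0244 against 0.111 without the block in limma.

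Among 14 tested genes that mark marrow stromal cells, 3 were called higher and 3 lower. PDGFRA, a receptor carried by the CXCL12-rich stromal cells, fell from 10767 ± 3025 to 908 ± 566 normalized counts (SD, n = 4), and its log2 fold change was -3.81 (limma adjusted p = 0.00220). CHL1 and COLEC12 were called lower, at -3.69 and -2.30 on the log2 scale, although edgeR did not call COLEC12 (adjusted p = 0.0572). ADIPOQ, adiponectin, was called higher, going from 13.5 ± 9.57 to 115.5 ± 52.9 normalized counts. Untreated J and L held 6.73 and 4.71, below the filter of 10 normalized counts. ADIPOQ was thus tested through its treated libraries, where it was high, and its call gives no support of its own. PDPN and NES were called higher at 1.51 and 1.25, but not after total scaling, where the adjusted p were 0.0771 and 0.0607 from limma. MCAM was called lower with the block and not without it, with adjusted p of 0.0431 and 0.0957 from limma. Of 2 tested adipocyte genes, ADIPOQ was called higher and LPL, with a log2 fold change of -0.67, was not called.

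**Figure D5:**
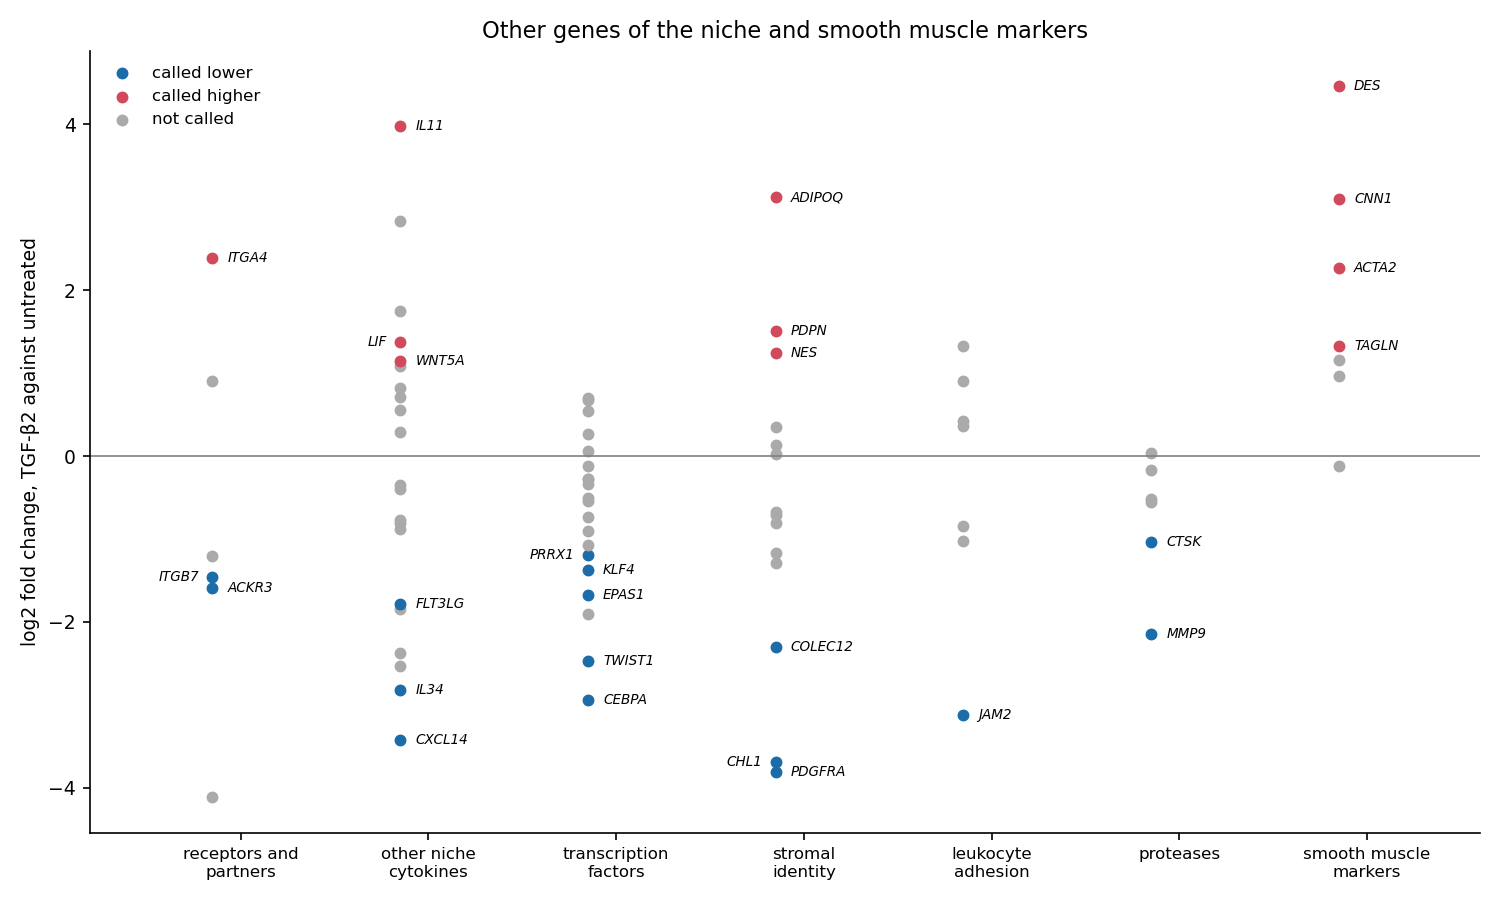
Log2 fold change of the other tested niche genes, by list, and of the smooth muscle markers, with called genes in blue (lower) and red (higher) and genes not called in grey. CHL1 and PDGFRA lie lowest of the called genes, and no called transcription factor lies above 0. DES lies highest, and it passed the filter only through its treated libraries. ADIPOQ also needed its treated libraries to pass.

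Among 7 tested adhesion genes, JAM2, a junctional molecule of stromal and endothelial cells, was called lower at -3.13 (adjusted p = 0.00742 from limma), and CD47 was called lower with the block only, with an adjusted p of 0.0257 against 0.0536. JAM3, CD44 and ICAM1 had log2 fold changes of 0.36, 0.43 and -0.85. Among 6 tested proteases that cut niche factors from the cell surface or degrade them, MMP9 and CTSK were called lower, with log2 fold changes of -2.15 and -1.04. MMP2 and MMP14, with log2 fold changes of -0.17 and -0.55, were not called.

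Over the 6 lists of receptors and partners, cytokines, transcription factors, stromal identity genes, adhesion genes and proteases, 7 of 74 tested genes were called higher and 16 lower, against 5.59% and 5.87% of all tested genes. With the block 7 were higher and 21 lower, and 22 of the 23 genes called without the block were among them. The count without the block was 6 when horse D was left out and 13 when horse W was left out. CXCL14, TWIST1, EPAS1, PDGFRA and ADIPOQ were called in all 4 fits that left out a horse without the block. ITGA4, ITGB7, LIF, KLF4, COLEC12, PDPN and MMP9 were called in only 1 of these fits, and WNT5A in 0. ADIPOQ, counted among the 7 called higher, passed the filter only with the help of its treated libraries.

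The genes whose levels ran most like those of the niche factors over the 8 libraries were found by the root mean square difference of log2(normalized count + 1) after centring. HPGD, which breaks down prostaglandins, was nearest to CXCL12, with a difference of 0.56, and also to VCAM1, with 0.93. FAM20A and TXNIP were second, at 0.83 for CXCL12 and 1.09 for VCAM1. EPHX1 and GPC3 were nearest to SNED1, both at 0.70. KITLG was nearest to ENPP5, with 0.18, EBF1 to TPST1, with 0.11, EBF3 to ZNF395, with 0.18, and FOXC1 to SYCE2, with 0.13. The genes nearest to ANGPT1 and CSF1 are known by locus numbers only, at 0.41 and 0.31. These distances describe 8 libraries from 4 horses, are larger for genes with larger changes, and carry no test.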

How the data were processed

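RNA from 8 BM-MSC cultures of 4 horses was poly(A)-selected and sequenced. The authors used Trimmomatic 0.36 for trimming, STAR 2.5.2b for alignment to EquCab 3.0 and featureCounts (Subread 1.5.2) for counting, and deposited DESeq2-normalized counts, a signal in which the reads of a library are divided by its size factor. Reads could be recovered, since 100% of values came out whole within 0.01 reads. Of 15267 rows, 1 had no gene name (0.0281% to 0.0531% of reads) and was left out.

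Limma 3.58.1 (R 4.3.3, with trend) was fitted to log2(normalized count + 1) of 14907 genes that reached 10 normalized counts in 4 or more of the 8 libraries. Fold changes are on this scale, which understates changes of low genes. The methods name no donor term, so the horse, given by the labels, was a block in an alternative. Libraries of 1 horse deviated together (correlation 0.386 to 0.609). Alternatives were pseudocounts of 0.5 and 5, no filter and a filter at 50, total, upper-quartile and TMM scaling, leaving out the trend, the fold threshold or any 1 horse, edgeR 4.0.16, and DESeq2 1.42.0 in both designs. Procedures were tested on simulated data. The genes and lists were chosen with earlier results of these data known. Named from each list were its called genes, filled up to 4 with its most abundant genes, and some genes called only with the block, chosen after their values were seen. Of the TGF-β response list, 1 gene is not reported here. Sequences and coordinates were not used here.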

Additional observations from a re-analysis of the deposited data

Results flagged for a closer look

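The highest and the lowest library of each group of 4 were compared with the nearest other library, for 59 genes in both groups, 118 groups in all. A library was singled out when its gap to that library, as a share of the group's range, exceeded Dixon's 95% critical value for 4 samples. For independent, normally distributed values chance gives this in about 1 in 20 groups. Here the rule was applied to normalized counts without a log, and the groups share 8 libraries. The number of groups is therefore not to be read against that rate. The rule was met in 15 groups.

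For the niche factors it held for CXCL12 in treated J, with 1049 normalized counts against 170.3 in the next library, and for VCAM1 in treated J, with 166 against 29.8. Treated J was also the high library for CEBPA (1014 normalized counts), SKIL (3701), ALPL (39045), SP7 (3705) and IBSP (9128). Untreated J was the high library for ICAM1 (25616) and CD68 (2437). Untreated L was the high one for SP7 (3310.2) and IBSP (1662). Untreated W was high for CXCL14 (503) and CHL1 (2142) and low for COLEC12 (2815), and treated W was low for ICAM1 (1943).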

How the results depend on the processing

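CXCL12, VCAM1, ANGPT1 and SNED1 were called lower in every alternative run, and the highest adjusted p among these was 0.0475, for CXCL12. Over the 9 niche factor genes and 21 alternatives each, 170 of the values kept their direction and their side of the threshold, 15 gained a call, 2 lost one (CSF1) and 2 changed sign (FOXC1, which ran from -0.37 to 0.0071 when a horse was left out, the sign changing without horse D with and without the block). The number of niche factor genes called was 8 after total scaling, which moves the median of all tested genes by -0.30 on the log2 scale, so that a gene must be read against that shift. Otherwise it ran from 4 to 7, the range given by leaving out a horse, and was 6 with the replicate block. The number of these genes lower in all horses was 8 with the other pseudocounts and with any horse left out, 9 after total scaling, where FOXC1 joined them, and 7 after upper-quartile scaling, where EBF1 left them. The other niche genes called, 23 without the block and 28 with it, numbered 35 by DESeq2 with the block, 6 (D) to 29 (J) with a horse left out and no block, and 14 (D) to 36 (J) with a horse left out and the block. All genes called, 1709 without the block, numbered 3403 without a fold change threshold and, by the horse left out, 718 (D) to 1937 (J) without the block and 1085 (W) to 2486 (J) with it. After total scaling 27.5% of all calls were higher, against 48.8% under the deposited scaling, and of the other niche genes 3 were called higher and 23 lower. For KITLG and FOXC1 the lowest treated count was 1856 reads.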
